A study of Mus musculus with 25 samples.

Results

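The hearts of 5 mice labelled MCT1KO ANG/PE were compared with the hearts of 4 mice labelled MCT1KO SALINE, gene by gene, to describe how the transcriptome of an MCT1KO heart differs after infusion of a pair of hypertrophic agonists. The members were chosen by the sample titles alone, and they are 9 of the 25 mouse hearts in the series. The other 16 hearts are 3 MCT1KO hearts without a pump, 4 WT hearts without a pump, 6 WT hearts with saline and 3 WT hearts with Ang/PE, and they entered the model to estimate the spread between hearts. Total RNA of the heart was depleted of ribosomal RNA and sequenced with a strand-marking kit. All 9 hearts compared carry the MCT1KO label, so the genotype label is shared by the agonist group and its vehicle group. The labels used here give no dose, no length of infusion, no hour of collection, no sex, age or strain, and no promoter or cell type for the deletion of MCT1.

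Angiotensin II acts on heart muscle, vessels and fibroblasts mainly through its AT1 receptor, and phenylephrine acts on alpha-1 adrenergic receptors. Both receptor types couple to Gq, which raises inositol phosphates and calcium and activates protein kinase C and the calcineurin pathway. Given for days by a pump, the pair is a standard way to provoke growth of heart muscle cells, return of fetal muscle genes and deposition of matrix. MCT1, encoded by Slc16a1, carries lactate and pyruvate together with a proton across the plasma membrane.

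Total counts were 12216704 to 16565155 in the Ang/PE hearts and 14034354 to 17421963 in the saline hearts, and 17682 of 56941 genes passed the filter on low counts. Slc16a1 (ENSMUSG00000032902), the targeted gene, was at 153, 153, 194 and 132 CPM (counts of the gene per unit of library size, scaled by TMM so that hearts are comparable) in saline replicates 1 to 4 and at 209, 162, 192, 213 and 173 CPM in Ang/PE replicates 1 to 5. It lay at 165 to 249 CPM in WT saline hearts, and 3 of the 4 saline hearts labelled MCT1KO lay below that range, a difference that was not tested. With Ang/PE the MCT1KO range of 162 to 213 CPM overlapped the WT range of 203 to 223 CPM. The transcript was thus present in all 9 libraries labelled MCT1KO. The labels do not say which exons were deleted or in which cells, and whole-gene counts cannot check a deletion of part of the gene or in part of the cells. Myh6, the main myosin of adult heart muscle, was at 19694 to 29902 CPM in the saline hearts and at 21619.8 to 31484 CPM in the Ang/PE hearts. Xist, the transcript of the inactive X chromosome, was nearly absent from saline replicate 4 and Ang/PE replicate 5, at 0.354 and 0.300 CPM. It lay at 548 to 658 CPM in the other 7 hearts. In the MCT1KO hearts without a pump, given below for some genes, Xist was nearly absent too, at 0.098, 0.117 and 0.268 CPM. Saline replicates 1 and 2 were the most alike pair, with a chi-square of 3.33 per degree of freedom over genes, still above sampling noise, and they were counted as separate hearts.

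The saline hearts stood apart from each other in transcripts of other tissue. A score of the atrial muscle genes Myl4, Myl7 and Sln, the mean of their log2(CPM + 1), was 7.62, 7.47, 0.44 and 9.93 in saline replicates 1 to 4 and 0.53 to 1.02 in the 5 Ang/PE hearts. A score of the fat genes Adipoq, Plin1, Cidec, Cidea and Ucp1 was 3.66, 3.25, 0.92 and 7.68 in the saline hearts and 0.77 to 0.95 with Ang/PE. Saline replicates 1, 2 and 4 thus carried atrial and fat transcripts that saline replicate 3 and all Ang/PE hearts nearly lacked, and replicate 4 carried the most. A clock score, the mean log2(CPM + 1) of Arntl, Npas2 and Clock minus that of Per2, Per3, Dbp, Nr1d1, Nr1d2 and Ciart, was -2.52 to -1.47 in the saline hearts and -0.40 to 0.71 with Ang/PE, with no overlap. In whole-heart RNA, fewer cells of a type and less RNA per cell cannot be told apart. Because of these values, results are given below also without saline replicate 4 and, as a choice made after the data were seen, with saline replicate 3 as the only saline heart.

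**Figure D1:**
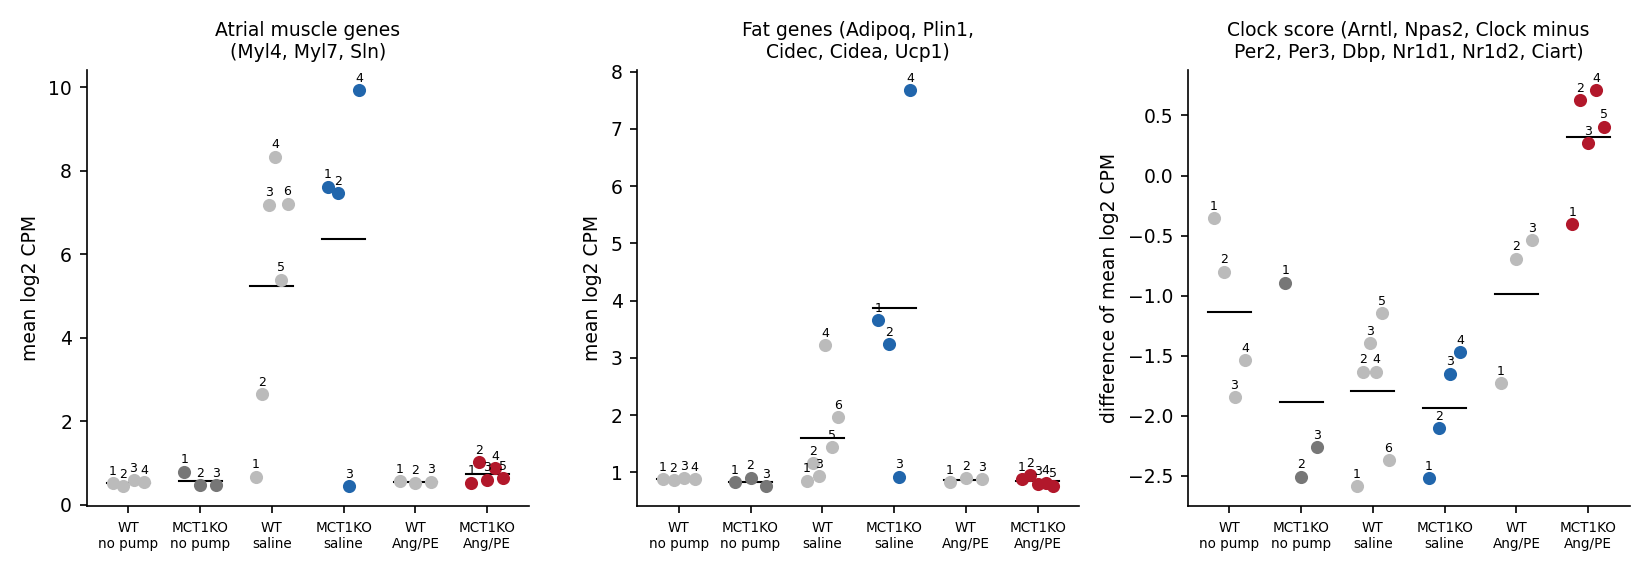
Mean log2(CPM + 1) of atrial muscle genes (left) and of fat genes (middle) and the clock score (right) in each of the 25 hearts by group; points are hearts labelled with their replicate number and black lines are group means. MCT1KO saline replicate 4 has the highest atrial and fat scores (9.93 and 7.68), saline replicate 3 sits with the Ang/PE hearts in both, and the clock score separates the saline and Ang/PE hearts of the MCT1KO label.

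Ang/PE hearts showed many modest increases and a larger number of deeper decreases, most of which had their highest value in 1 saline heart. At an adjusted p below 0.05 in edgeR's quasi-likelihood test, 788 of 17682 genes were called (4.46%), of which 310 were higher with Ang/PE (1.75%) and 478 lower (2.7%). The median log2 fold change was 0.54 among the genes called higher and -1.49 among those called lower, against -0.01 over all tested genes. A change of at least 2-fold was seen in 54 of the genes called higher and in 327 of those called lower. The CPM of the 9 hearts did not overlap for 227 of the 310 and for 195 of the 478. Over all tested genes, such a separation was seen for 3.06% with Ang/PE higher and 2.36% with Ang/PE lower.

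Of the 478 genes called lower, 415 had their highest saline value in replicate 4, and 247 had a value in saline replicate 3 no higher than the highest Ang/PE heart. Of the 310 genes called higher, 223 had their lowest saline value in replicate 4, and 264 had a value in saline replicate 3 below all 5 Ang/PE hearts. In the fit with 3 saline hearts, saline replicate 4 left out, 39 genes were called (0.222%), 14 higher (0.0798%) and 25 lower (0.142%). All 310 genes called higher and all 465 fitted genes called lower kept their direction without it, with medians of 0.43 and -0.87. With saline replicate 3 as the only saline heart 0 genes were called and 1874 had an unadjusted p below 0.05 in edgeR. In that comparison 309 of the 310 genes kept their direction, with a median of 0.44, and 379 of 475 lower genes did, with a median of -0.40. Removal of saline replicate 3 gave 1541 calls, and removal of Ang/PE replicate 1, 3, 4 or 5 gave 475, 509, 463 or 404. The hearts kept in these fits, saline replicate 3 included, were among those that chose the genes. The kept directions are therefore no independent support. Among hearts that express Xist, a set that leaves out saline replicate 4 and Ang/PE replicate 5, 13 genes were called. With all 4 saline hearts DESeq2 called 1224 genes, and edgeR fitted on the 9 hearts alone called 1.

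**Figure D2:**
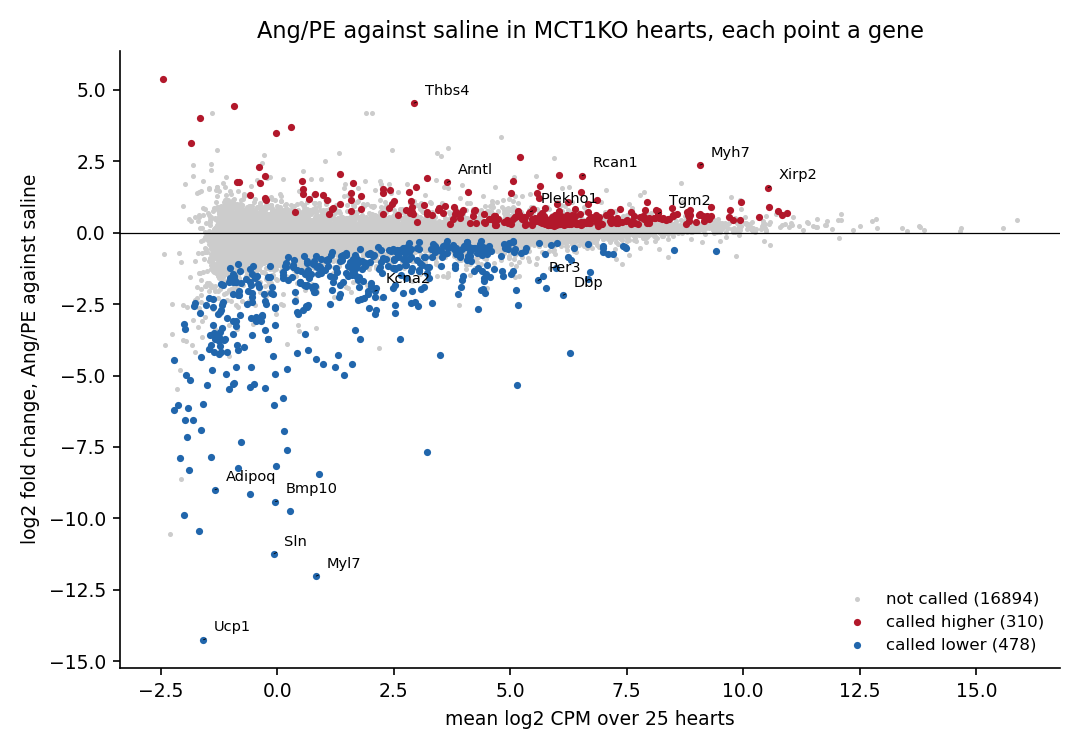
Log2 fold change of Ang/PE against saline in MCT1KO hearts against mean log2 CPM over 25 hearts; each point is 1 of 17682 tested genes, with the 310 called higher in red and the 478 called lower in blue. The increases are small for most genes and reach well expressed genes such as Myh7 and Xirp2, while the largest decreases are atrial (Sln, Myl7, Bmp10) and fat genes (Adipoq, Ucp1), whose fitted folds depend on the prior count where Ang/PE hearts are at 0.

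Removal of each of the 9 hearts in turn left 36 genes called every time, 13 higher and 23 lower. For any of these 36, a call without saline replicate 4 follows from this membership and is no further support. Among the 13 were Plekho1, a lipid-binding adaptor of the plasma membrane, Tgm2, the enzyme that cross-links proteins of the matrix, Clic5, an actin-associated chloride channel family member, Prnp, the prion protein, Arntl, the clock activator, and P4ha1, a collagen prolyl hydroxylase. Among the 23 were the atrial gene Myl7 and the fat gene Plin1. Every fit with a heart removed still held saline hearts that carried atrial and fat transcripts. The part of such tissue in the 36 calls was not tested. The 23 also held the clock genes Per3, Dbp, Nr1d2 and Tef and the tetraspanin gene Tspan4, which the clock output list holds. Others were the potassium channel gene Kcna2, the gelatinase gene Mmp9 and the Z-disc gene Tcap. The last of these and Fbxo40, Pdlim7, Tpsb2 and Il1rl1, given below, were picked after their values were seen.

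Several genes of muscle growth and of the fetal program rose. Of 28 listed genes 27 were tested, 5 rose (Xirp2, Rcan1, Meox1, Ankrd23 and Myh7), 0 fell, and the median log2 fold change was 0.58. The share called, 18.5%, compares with 4.46% of all tested genes. Xirp2, an actin-binding protein of the intercalated disc, was at 1118, 1188, 1164 and 565 CPM in saline replicates 1 to 4 and at 3599, 3947, 2120.1, 2429 and 2994 CPM in Ang/PE replicates 1 to 5. Every Ang/PE heart lay above every saline heart (log2 fold change 1.58, SE 0.31, edgeR adjusted p = 0.0123). Rcan1, a regulator of calcineurin and a readout of its activity, was at 63.97, 68.3, 67.04 and 37.8 CPM with saline and 379.5, 277, 162, 186 and 178 CPM with Ang/PE. The groups did not overlap and Ang/PE replicate 1 was the highest (log2 fold change 2.00, SE 0.42, edgeR adjusted p = 0.0141).

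Myh7, the slow beta myosin heavy chain of the fetal heart, was at 689, 659.5, 239 and 197 CPM with saline and at 937, 3865, 1435, 639 and 4667 CPM with Ang/PE. Ang/PE replicates 2 and 5 were far above the rest, and replicate 4 lay below saline replicates 1 and 2 (log2 fold change 2.37, SE 0.59, edgeR adjusted p = 0.0268). Ankrd23, a stretch-responsive ankyrin repeat protein of the sarcomere, rose from 84.7 ± 35.2 CPM (SD, n = 4) to 185 ± 41.4 CPM (SD, n = 5), an adjusted p of 0.0263 in edgeR. Meox1, a homeobox factor of activated fibroblasts that the matrix list also holds, rose from 14.4 ± 3.86 CPM (SD, n = 4) to 39.1 ± 20.7 CPM (SD, n = 5), an adjusted p of 0.0223 in edgeR. When saline replicate 4 was removed, none of the 27 was called, against 0.222% of all genes in that fit. These 5 then had adjusted p of 0.0624 to 0.148 in edgeR and log2 fold changes of 0.86 to 2.12. Against saline replicate 3 alone the log2 fold changes of the 5 were 0.76 to 3.27.

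Other well known members of the program did not pass the test. Nppa, atrial natriuretic peptide, was at 1689, 1366, 62.5 and 3706 CPM with saline and 359, 5144, 313, 491 and 1759 CPM with Ang/PE, with overlapping ranges (log2 fold change -0.08, SE 1.07, edgeR adjusted p = 0.979). Its saline values follow the order of the atrial score, and the part of atrial tissue in them was not tested. Against saline replicate 3 alone, at 62.5 CPM, its log2 fold change was 4.68 (unadjusted p = 0.0658 in edgeR). Nppb, B-type natriuretic peptide, was at 210.3, 158, 297 and 80.2 CPM with saline and 425, 805, 281, 388 and 441 CPM with Ang/PE (log2 fold change 1.33, SE 0.51, edgeR adjusted p = 0.144). Acta1, skeletal alpha actin, was higher in every Ang/PE heart, at 396 to 1097 against 41.3 to 367 CPM, with an adjusted p of 0.168 in edgeR. Ankrd1, a cardiac stress-responsive ankyrin repeat protein, was at 387 to 1282 CPM with saline and at 914 to 4219 CPM with Ang/PE, with an adjusted p of 0.152.

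Of 24 genes of adult contraction and calcium handling, 3 rose, 1 fell, and the median log2 fold change was 0.32 (16.7% called, against 4.46% of all tested genes). Casq2, the calcium-binding protein of the sarcoplasmic reticulum, was at 525, 513, 613 and 415 CPM with saline and 751, 799, 755, 783 and 833 CPM with Ang/PE. The 5 Ang/PE hearts were close together and all higher (log2 fold change 0.60, SE 0.12, edgeR adjusted p = 0.0123). Slc8a1, the sodium-calcium exchanger, rose by 0.44 (SE 0.10) and Actn2, the Z-disc alpha actinin, by 0.68 (SE 0.15) on the log2 scale, with adjusted p of 0.0148 and 0.0169 in edgeR. Without saline replicate 4, the list had no call, against 0.222% of all genes in that fit. The adjusted p of these 3 were then 0.0571 to 0.091 in edgeR. The list median was 0.11 without that heart and 0.12 against saline replicate 3 alone. The member that fell, Sln, the sarcolipin of atrial muscle, was at 0 CPM in saline replicate 3 as well and is described with the atrial genes. Myh6, the adult alpha myosin heavy chain, was at 19694 to 29902 CPM with saline and 21619.8 to 31484 CPM with Ang/PE (log2 fold change 0.15, SE 0.18, edgeR adjusted p = 0.68). Atp2a2, the calcium pump SERCA2, had a log2 fold change of 0.09 (SE 0.17, adjusted p = 0.82), and Pln, its inhibitor phospholamban, one of 0.27 (SE 0.20, adjusted p = 0.469).

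Sarcomere-associated genes outside these lists moved both ways. Tcap, telethonin, which caps titin at the Z-disc, was at 853, 835, 696 and 529 CPM with saline and 599.6, 414, 484, 411 and 416 CPM with Ang/PE. Ang/PE replicate 1 was above saline replicate 4, and the remaining Ang/PE hearts were below all saline hearts (log2 fold change -0.65, SE 0.15, edgeR adjusted p = 0.0159). Fbxo40, a muscle-restricted ubiquitin ligase subunit, was at 259, 257, 270.2 and 101 CPM with saline and 382, 397, 388, 351 and 378 CPM with Ang/PE, with every Ang/PE heart higher (log2 fold change 0.77, SE 0.18, edgeR adjusted p = 0.0204). Pdlim7, an actin-associated PDZ and LIM domain protein, rose from 32.5 ± 6.53 CPM (SD, n = 4) to 45.4 ± 4.47 CPM (SD, n = 5) with an adjusted p of 0.0141 in edgeR. With saline replicate 4 left out, these 3 genes had adjusted p of 0.00594 to 0.0455 in edgeR. All 3 belong to the 36 genes called in every removal of 1 heart, so a call in this fit follows from that membership.

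**Figure D3:**
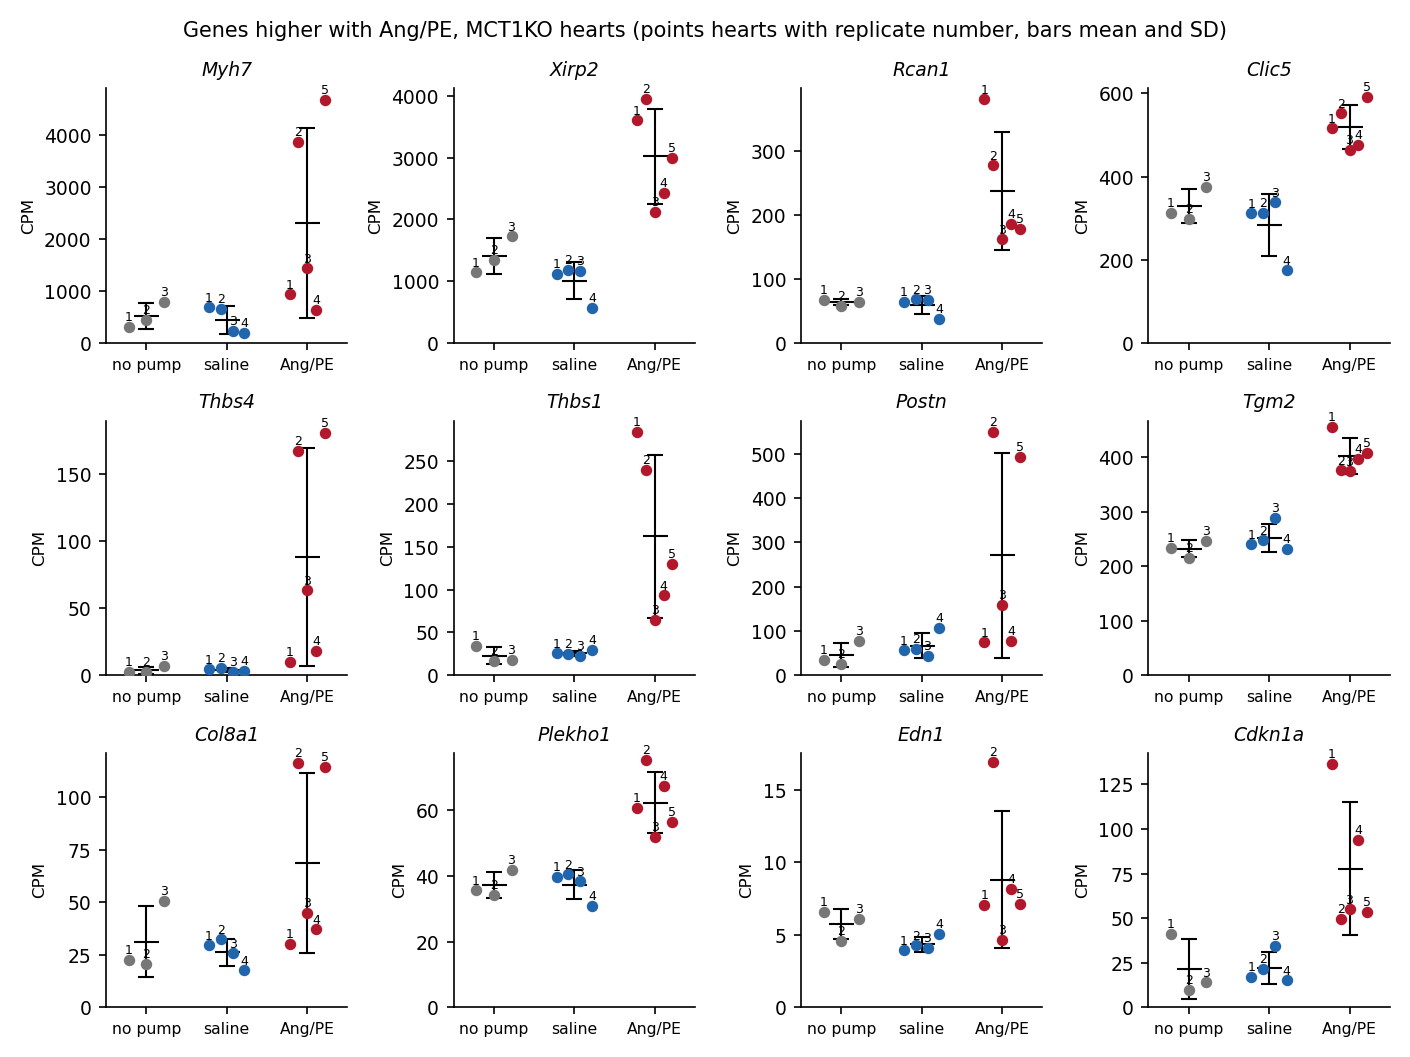
CPM of 12 genes called higher with Ang/PE in the MCT1KO hearts without a pump, with saline and with Ang/PE; points are hearts labelled with their replicate number, bars are mean and SD. Ang/PE replicates 2 and 5 are highest for Myh7, Thbs4, Postn and Col8a1, Ang/PE replicate 1 is highest for Rcan1, Thbs1 and Cdkn1a, and the 5 Ang/PE hearts are close together for Tgm2, Clic5 and Plekho1.

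Among matricellular and activated fibroblast genes, 45 of 46 were tested, 6 rose (Thbs4, Cthrc1, Meox1, Thbs1, Ddah1 and Postn), 1 fell (Ccn3), and the median log2 fold change was 0.45 (15.6% called, against 4.46% of all tested genes). Thbs4, thrombospondin 4 of injured muscle, was at 4.38, 5.24, 2.44 and 3.07 CPM with saline and 10.1, 167, 63.1, 18.2 and 181 CPM with Ang/PE. All Ang/PE hearts were higher, replicates 2 and 5 by far (log2 fold change 4.54, SE 0.82, edgeR adjusted p = 0.0114). Thbs1, thrombospondin 1, an activator of latent TGF-beta, was at 25.6, 24.6, 22.9 and 29.7 CPM with saline and 284, 240.3, 64.2, 93.2 and 129.9 CPM with Ang/PE, again without overlap (log2 fold change 2.66, SE 0.68, edgeR adjusted p = 0.0301). Postn, periostin of activated fibroblasts, was at 56.1, 60.01, 44.2 and 107 CPM with saline and 73.97, 548, 159, 77.9 and 492 CPM with Ang/PE. Replicates 2 and 5 stood high while replicates 1 and 4 lay below saline replicate 4 (log2 fold change 2.02, SE 0.57, edgeR adjusted p = 0.0498).

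Cthrc1, a secreted protein of matrix-producing fibroblasts, was at 0.106, 0.196, 0 and 0.177 CPM with saline and 0.0914, 6.14, 0.876, 0.0748 and 2.76 CPM with Ang/PE (adjusted p = 0.0215 in edgeR), so that its call rested on replicates 2, 3 and 5. Ddah1, which breaks down methylated arginines that inhibit nitric oxide synthase, had a log2 fold change of 1.10 (SE 0.31, adjusted p = 0.0457). Ccn3, a matricellular protein, was at 7.24, 3.66, 5.25 and 43.5 CPM with saline and 2.93, 1.54, 2.47, 2.84 and 1.801 CPM with Ang/PE (log2 fold change -2.70, SE 0.56, edgeR adjusted p = 0.0141), and its log2 fold change was -1.24 without saline replicate 4. Without that heart the list had no call, against 0.222% of all genes in that fit. The 6 that rose then had adjusted p of 0.0563 to 0.193 in edgeR. The log2 fold changes against saline replicate 3 alone were 1.18 to 5.17 for the 5 that were not at 0 in that heart. Ccn2, connective tissue growth factor, was at 129, 83.2, 74.7 and 263 CPM with saline and 709, 618, 112, 228 and 269.6 CPM with Ang/PE, overlapping (log2 fold change 1.49, SE 0.62, edgeR adjusted p = 0.178). Tnc, tenascin C, and Fn1, fibronectin, had adjusted p of 0.418 and 0.825 in edgeR and log2 fold changes of 0.57 and 0.15. Without saline replicate 4, the highest saline heart for Fn1, these were 0.52 and 0.57. Against saline replicate 3 alone they were 1.44 and 1.06.

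Of 35 tested collagen genes 5 rose, 2 fell, and the median was 0.02 (20% called, against 4.46% of all tested genes). Col4a1 and Col4a2, the chains of the common basement membrane collagen, both rose. Col4a1 rose from 632, 575, 500.3 and 409.9 CPM with saline to 841, 803, 748, 827 and 756 CPM with Ang/PE without overlap (log2 fold change 0.59, SE 0.15, edgeR adjusted p = 0.0235). Col4a2 rose from 392 ± 78.2 CPM (SD, n = 4) to 603 ± 33.4 CPM (SD, n = 5), an adjusted p of 0.0169 in edgeR. Col22a1, a collagen of tissue junctions, was at 0.528, 0.524, 0.625 and 0.413 CPM with saline and 1.097, 12.3, 4.38, 0.897 and 10.6 CPM with Ang/PE (log2 fold change 3.49, SE 0.65, edgeR adjusted p = 0.011). Col11a1, a fibril-regulating collagen chain, was at 0 to 0.370 CPM with saline and 0.183, 7.47, 3.34, 0.673 and 11.3 CPM with Ang/PE, an adjusted p of 0.0266 in edgeR. Col8a1, a short-chain collagen of vessels and remodelling heart, was at 29.4, 32.3, 25.6 and 17.6 CPM with saline and 30.2, 116, 45.1, 37.1 and 115 CPM with Ang/PE (log2 fold change 1.39, SE 0.40, edgeR adjusted p = 0.0489).

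The main interstitial collagens were not called. Col1a1 was at 182 to 369 CPM with saline and 146 to 481 CPM with Ang/PE (log2 fold change 0.12, SE 0.27, edgeR adjusted p = 0.857), and Col3a1 had a log2 fold change of 0.05 (SE 0.30). Saline replicate 4 was the highest saline heart for both. The log2 fold changes were 0.30 and 0.19 without it, and 0.69 and 0.52 against saline replicate 3 alone. Both collagens that fell, Col6a6 and Col4a6, had their highest value in saline replicate 4, and without it their log2 fold changes were -0.85 and -0.73 in place of -1.24 and -2.15. Without that heart 0 collagen genes were called, against 0.222% of all genes in that fit. Adjusted p in edgeR were then 0.0554 to 0.217 for the 5 that rose and 0.152 to 0.44 for these 2.

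Among 40 tested enzymes that cross-link and remodel matrix, 3 rose and 1 fell, with a median of 0.21 (10% called, against 4.46% of all tested genes). Tgm2 was at 239.8, 247, 289 and 231 CPM with saline and 455, 376, 373, 397 and 408 CPM with Ang/PE. The hearts within each group were close and the groups far apart (log2 fold change 0.67, SE 0.10, edgeR adjusted p = 0.00334). P4ha1, which hydroxylates prolines of collagen, was at 48.3, 46.5, 54.8 and 57.6 CPM with saline and 75.9, 79.6, 60.8, 62.6 and 80.3 CPM with Ang/PE, without overlap (log2 fold change 0.47, SE 0.10, edgeR adjusted p = 0.0141). Tgm2 and P4ha1 are among the 36 genes called in every removal of 1 heart. Their calls without saline replicate 4, at adjusted p of 0.0112 and 0.0455 in edgeR, follow from that membership. Adamts9, a protease of versican and aggrecan, had an adjusted p of 0.0438 and one of 0.181 without that heart. Mmp9, the gelatinase of neutrophils and other cells, fell from 3.27, 3.73, 3.37 and 9.02 CPM with saline to 1.28, 1.33, 1.67, 1.196 and 1.38 CPM with Ang/PE, with every Ang/PE heart lower (log2 fold change -1.82, SE 0.29, edgeR adjusted p = 0.00498). Its adjusted p was 0.021 without saline replicate 4, and against saline replicate 3 alone its log2 fold change was -1.30. Lox, lysyl oxidase, was at 4.01, 3.93, 3.19 and 15.5 CPM with saline and 9.87, 36.2, 9.87, 5.83 and 45.7 CPM with Ang/PE, and Timp1, an inhibitor of matrix proteases, at 2.8, 3.53, 1.19 and 2.54 CPM with saline and 2.83, 11.8, 3.03, 3.07 and 6.78 CPM with Ang/PE, with adjusted p of 0.125 and 0.292.

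The Ang/PE hearts differed among themselves in these genes. Of the 54 genes called higher by at least 2-fold, 17 were highest in Ang/PE replicate 2, 15 in replicate 5, 12 in replicate 1, 6 in replicate 4 and 4 in replicate 3. For 23 of the 54 the 2 highest hearts were replicates 2 and 5, among them Myh7, Thbs4, Postn, Cthrc1, Col22a1, Col11a1 and Col8a1. This grouping was noticed after the values were seen. Of these 2 hearts, replicate 2 expresses Xist and replicate 5 does not.

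TGF-beta and BMP signalling genes had 43 tested members, 1 that rose, 4 that fell and a median of -0.07 (11.6% called, against 4.46% of all tested genes). Smurf2, a ubiquitin ligase for receptor-activated SMADs, rose by 0.29 (SE 0.08, adjusted p = 0.0435 in edgeR) on the log2 scale. Bmp2, a BMP ligand, fell from 2.32, 3.66, 1.19 and 3.598 CPM with saline to 1.097, 1.19, 0.637, 0.972 and 1.02 CPM with Ang/PE without overlap (log2 fold change -1.44, SE 0.31, edgeR adjusted p = 0.0141). Tgfbr3, the TGF-beta co-receptor betaglycan, fell by 0.41 and Smad2, a transducer of TGF-beta signals, fell by 0.29 on the log2 scale, with adjusted p of 0.0223 and 0.0235. Bmp10, an atrial ligand, is given with the atrial genes. Tgfb2, a TGF-beta ligand, overlapped between groups (adjusted p = 0.356). In the fit with 3 saline hearts, saline replicate 4 left out, the adjusted p of Smurf2, Bmp2, Tgfbr3 and Smad2 were 0.079 to 0.157.

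Of 49 tested genes of angiotensin, adrenergic and Gq signalling, 2 rose (Rcan1 and Edn1), 1 fell (Adrb3), and the median was 0.06. The share called, 6.12%, is near the 4.46% of all tested genes. Edn1, endothelin 1, a vasoconstrictor peptide that also signals through Gq, was at 3.91, 4.25, 4.06 and 5.07 CPM with saline and 7.04, 16.9, 4.62, 8.15 and 7.14 CPM with Ang/PE. Replicate 2 was the highest and replicate 3 lay within the saline range (log2 fold change 1.02, SE 0.28, edgeR adjusted p = 0.0352). The receptors of the infused agonists were not called: Agtr1a, the AT1 receptor, was at 32.2, 36.8, 29.5 and 14.5 CPM with saline and 32.5, 26.5, 29.5, 31.1 and 24.02 CPM with Ang/PE (log2 fold change 0.02, SE 0.21, edgeR adjusted p = 0.969). Adra1a and Adra1b, the alpha-1 receptors, had log2 fold changes of 0.25 (SE 0.27) and -0.15 (SE 0.18). Rgs2, which shortens Gq signals, had an adjusted p of 0.0654. Adrb3, the beta-3 receptor of fat, was at 2.59, 1.57, 0.125 and 37.2 CPM with saline and 0 to 0.180 CPM with Ang/PE. Its order over the saline hearts is that of the fat score. When saline replicate 4 was removed, none of the 49 was called, against 0.222% of all genes in that fit. The adjusted p in edgeR were then 0.102 for Edn1 and 0.0734 for Adrb3.

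A further ligand of the endothelin family, Edn3, was among the 6 largest increases that met the rule for named genes. It was at 1.004, 1.44, 2.69 and 0.295 CPM with saline and 4.02, 4.33, 4.54, 5.98 and 9.19 CPM with Ang/PE, without overlap (log2 fold change 2.06, SE 0.42, edgeR adjusted p = 0.0135), and had an adjusted p of 0.0556 without saline replicate 4.

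Heat shock and endoplasmic reticulum stress genes had 45 tested members, of which 7 rose and 0 fell, with a median of 0.21 (15.6% called, against 4.46% of all tested genes). Hspb7, a small heat shock protein of heart muscle, was at 1241, 1436, 1256 and 754 CPM with saline and 2204, 1915, 2337, 2557 and 1962 CPM with Ang/PE, without overlap (log2 fold change 0.91, SE 0.19, edgeR adjusted p = 0.0139). Bag3, a co-chaperone that maintains filamin and the Z-disc, was at 209, 215, 205 and 128 CPM with saline and 494, 290.4, 310.1, 268 and 269 CPM with Ang/PE (log2 fold change 0.79, SE 0.19, edgeR adjusted p = 0.0216), and replicate 1 was the highest. Atf6, a sensor of protein load in the endoplasmic reticulum, was at 166, 168, 178 and 142 CPM with saline and 220.1, 213, 240.4, 212 and 219 CPM with Ang/PE (log2 fold change 0.43, SE 0.09, edgeR adjusted p = 0.0141). Hspa4, Hspb6, Hsp90ab1 and Hsph1, further chaperones, rose by 0.42 to 0.86 on the log2 scale with adjusted p of 0.0245 to 0.0304 in edgeR. Without saline replicate 4, the lowest saline heart for 6 of these 7, none was called, against 0.222% of all genes in that fit. The 7 log2 fold changes were then 0.32 to 0.86, at adjusted p of 0.0634 to 0.154 in edgeR.

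Of 42 tested genes of hypoxia and oxidative stress, Vegfa and Ddit4 rose and 0 fell, with a median of 0.11. The share called, 4.76%, is near the 4.46% of all tested genes. Vegfa, the vascular endothelial growth factor, was at 238, 214, 267 and 170.0 CPM with saline and 276, 278, 343, 343 and 273 CPM with Ang/PE (log2 fold change 0.44, SE 0.11, edgeR adjusted p = 0.0248). Ddit4, an inhibitor of mTORC1 that responds to stress and glucocorticoids, was at 24.8, 25.1, 45.7 and 14.04 CPM with saline and 164, 53.8, 73.2, 74.2 and 63.9 CPM with Ang/PE (log2 fold change 1.64, SE 0.43, edgeR adjusted p = 0.0354). Both groups of hearts were separate for each gene, and Ang/PE replicate 1 was the highest for Ddit4. Their adjusted p without saline replicate 4 were 0.138 and 0.178. Of 30 ubiquitin ligase and autophagy genes 1 rose (3.33%, near the 4.46% of all tested genes), the E3 ligase gene Rnf144b (log2 fold change 0.53, adjusted p = 0.0273, and 0.154 without saline replicate 4).

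Genes of the circadian clock were among those with the smallest adjusted p. The clock is a loop in which the activators Arntl (BMAL1), Clock and Npas2 bind E-boxes and drive the Per, Cry and Nr1d genes, whose proteins then repress the activators or their targets. Nr1d proteins and their competitors, the ROR receptors, act on ROR elements such as those of Arntl, and the outputs Dbp, Tef, Hlf and Nfil3 act on D-boxes. Of 17 core clock genes 3 rose (Arntl, Npas2 and Clock) and 4 fell (Per3, Nr1d2, Cry2 and Nr1d1), so that 41.2% were called against 4.46% of all tested genes. Of 29 tested clock output genes 2 rose (Nfil3 and Cdkn1a) and 5 fell (Dbp, Tspan4, Hlf, Tef and Ciart), or 24.1%. Cdkn1a is counted in the cell cycle list too. The list medians of 0.14 and -0.04 take in activators and repressors called in opposite directions.

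The sequences just before the start sites of these 14 called genes were searched for short patterns of these 3 elements. The 250 bases before the start were read from RefSeq promoter windows (build GRCm38.p6), on the strand of the gene. Both strands were searched for the E-box CACGTG, the D-box TTATGNAA and the pattern TNGGTCA, with N any base. TNGGTCA is looser than the core of ROR elements, which has A or G at N, so a match need not be a ROR element. All 14 genes matched the table. The E-box was found in 3 (Ciart, Tef and Tspan4), against 6.86% of 27025 genes, and the D-box in 1 (Per3), against 3.63%. The TNGGTCA pattern was found in 5 (Arntl, Cry2, Nfil3, Per3 and Tef), against 10.5%. Among these 5, only the Nfil3 match, TGACCTA, has A or G at N when read on the other strand. These matches describe letters in the window and say nothing of binding. Sequence beyond the window was not searched, so a gene without a match may carry the element elsewhere. The windows of Arntl (chr7:113207215-113207464, plus strand), Per3 (chr4:151044666-151044915, minus strand), Ciart (chr3:95882229-95882478, minus strand) and Tef (the second of its windows, chr15:81811164-81811413, plus strand) are shown because they hold the matches of an activator, a repressor and 2 output genes. Capitals mark the matches, which read as the reverse complement where they lie on the other strand, and each line runs 5′ to 3′.
Arntl: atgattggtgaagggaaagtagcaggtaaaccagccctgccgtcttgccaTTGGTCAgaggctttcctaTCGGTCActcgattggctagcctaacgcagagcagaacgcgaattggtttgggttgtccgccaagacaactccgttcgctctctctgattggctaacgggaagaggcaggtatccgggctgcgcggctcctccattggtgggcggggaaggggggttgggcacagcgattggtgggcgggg
Per3: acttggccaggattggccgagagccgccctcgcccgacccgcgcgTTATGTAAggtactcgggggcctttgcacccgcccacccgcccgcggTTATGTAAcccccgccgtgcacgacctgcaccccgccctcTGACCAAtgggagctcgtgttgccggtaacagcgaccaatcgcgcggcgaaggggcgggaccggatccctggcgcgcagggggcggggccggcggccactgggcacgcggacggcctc
Ciart: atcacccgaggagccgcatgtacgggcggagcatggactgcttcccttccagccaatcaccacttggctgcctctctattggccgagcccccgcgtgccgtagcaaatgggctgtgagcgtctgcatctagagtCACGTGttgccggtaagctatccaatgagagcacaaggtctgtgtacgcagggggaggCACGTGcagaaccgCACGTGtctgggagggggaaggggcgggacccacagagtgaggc
Tef: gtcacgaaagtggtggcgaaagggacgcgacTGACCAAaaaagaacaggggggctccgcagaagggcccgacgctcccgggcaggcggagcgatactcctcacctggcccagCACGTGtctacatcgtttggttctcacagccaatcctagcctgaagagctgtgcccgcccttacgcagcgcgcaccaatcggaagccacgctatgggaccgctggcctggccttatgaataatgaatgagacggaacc

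In the Arntl window the TNGGTCA pattern lay at 200 (TTGGTCA) and at 181 (TCGGTCA) bases before the start. Arntl was at 4.86, 6.35, 11.6 and 10.9 CPM in saline replicates 1 to 4 and at 21.1, 31.2, 27.5, 32 and 30.6 CPM in Ang/PE replicates 1 to 5. Every Ang/PE heart was above every saline heart and above the hearts without a pump, at 14.2, 6.85 and 7.11 CPM (log2 fold change 1.76, SE 0.31, edgeR adjusted p = 0.0109). Npas2, the partner that can replace Clock, was at 5.81, 6.61, 5.56 and 8.79 CPM with saline and 7.497, 15.1, 13.5, 12.3 and 14.2 CPM with Ang/PE, and Ang/PE replicate 1 lay within the saline range (log2 fold change 0.91, SE 0.23, edgeR adjusted p = 0.0248). Clock itself moved little, with a log2 fold change of 0.31 (SE 0.09, adjusted p = 0.0465).

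Per3, with D-box matches at 205 and 158 bases before the start, was at 92.6, 80.4, 50.9 and 81.04 CPM with saline and 23.3, 25, 28.2, 19.3 and 23.95 CPM with Ang/PE. All 5 Ang/PE hearts were below all saline hearts and below the hearts without a pump, at 48.2, 94.5 and 90.4 CPM (log2 fold change -1.67, SE 0.26, edgeR adjusted p = 0.00498). Nr1d2, the nuclear receptor REV-ERB beta, was at 165, 146, 179.9 and 132 CPM with saline and 113, 80.6, 89.8, 81.4 and 98.2 CPM with Ang/PE, without overlap (log2 fold change -0.75, SE 0.12, edgeR adjusted p = 0.00498). Its relative Nr1d1 and the repressor Cry2 fell by 0.67 and by 0.62 on the log2 scale, with adjusted p of 0.0301 and 0.0163 in edgeR. Per2 lay lower in every Ang/PE heart, at 9.29 to 25.9 against 31.9 to 37.4 CPM, and did not pass the test (adjusted p = 0.0588). Per1 likewise did not pass, with a log2 fold change of -0.32 (SE 0.18, adjusted p = 0.31).

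Among the outputs, Dbp, a D-box activator, was at 153, 127, 79.7 and 110.4 CPM with saline and 37.6, 25.2, 27.1, 11.6 and 27.9 CPM with Ang/PE, with a gap of more than 2-fold between the groups (log2 fold change -2.19, SE 0.34, edgeR adjusted p = 0.00498). Ciart, a repressor with the E-box at 116, 58 and 44 bases before its start, was at 20.9, 14.1, 11 and 5.07 CPM with saline and 4.21, 2.79, 2.23, 2.99 and 3.24 CPM with Ang/PE. The lowest saline heart, replicate 4, was close above the Ang/PE hearts (log2 fold change -2.05, SE 0.54, edgeR adjusted p = 0.0353). Tef and Hlf, the relatives of Dbp, fell by 0.74 and by 1.28 on the log2 scale, and Tspan4, a tetraspanin, fell by 0.67, with adjusted p of 0.0123 to 0.014.

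Nfil3, the D-box repressor that opposes Dbp, was at 4.701, 5.497, 7.12 and 4.896 CPM with saline and 51.9, 13.6, 15.7, 12.6 and 11.6 CPM with Ang/PE. All Ang/PE hearts were higher and replicate 1 was the highest (log2 fold change 1.91, SE 0.53, edgeR adjusted p = 0.0423). Cdkn1a, the cell cycle inhibitor p21, was at 16.9, 21.7, 34.4 and 14.98 CPM with saline and 136, 49.7, 54.9, 94.05 and 53.3 CPM with Ang/PE, without overlap (log2 fold change 1.82, SE 0.50, edgeR adjusted p = 0.0443). Both lost their call without saline replicate 4, at adjusted p of 0.18 and 0.196.

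With saline replicate 4 left out, Arntl, Per3, Nr1d2, Dbp, Tspan4 and Tef remained called, at adjusted p of 0.00594 to 0.0485 in edgeR. The other members of the clock lists named as called had adjusted p of 0.0569 to 0.196. Those that remained called belong to the 36 genes called in every removal of 1 heart, so their calls here follow from that membership. Against saline replicate 3 alone, which lacks the atrial and fat transcripts, the log2 fold changes were 1.30 for Arntl, -1.10 for Per3, -0.97 for Nr1d2 and -1.64 for Dbp. The hour at which each heart was taken is not in the labels. With the clock score as a covariate, which is built from some of these same genes, 0 of 17682 genes were called and 1612 had an unadjusted p below 0.05 in edgeR, and the part of the hour of collection in the comparison was not tested.

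**Figure D4:**
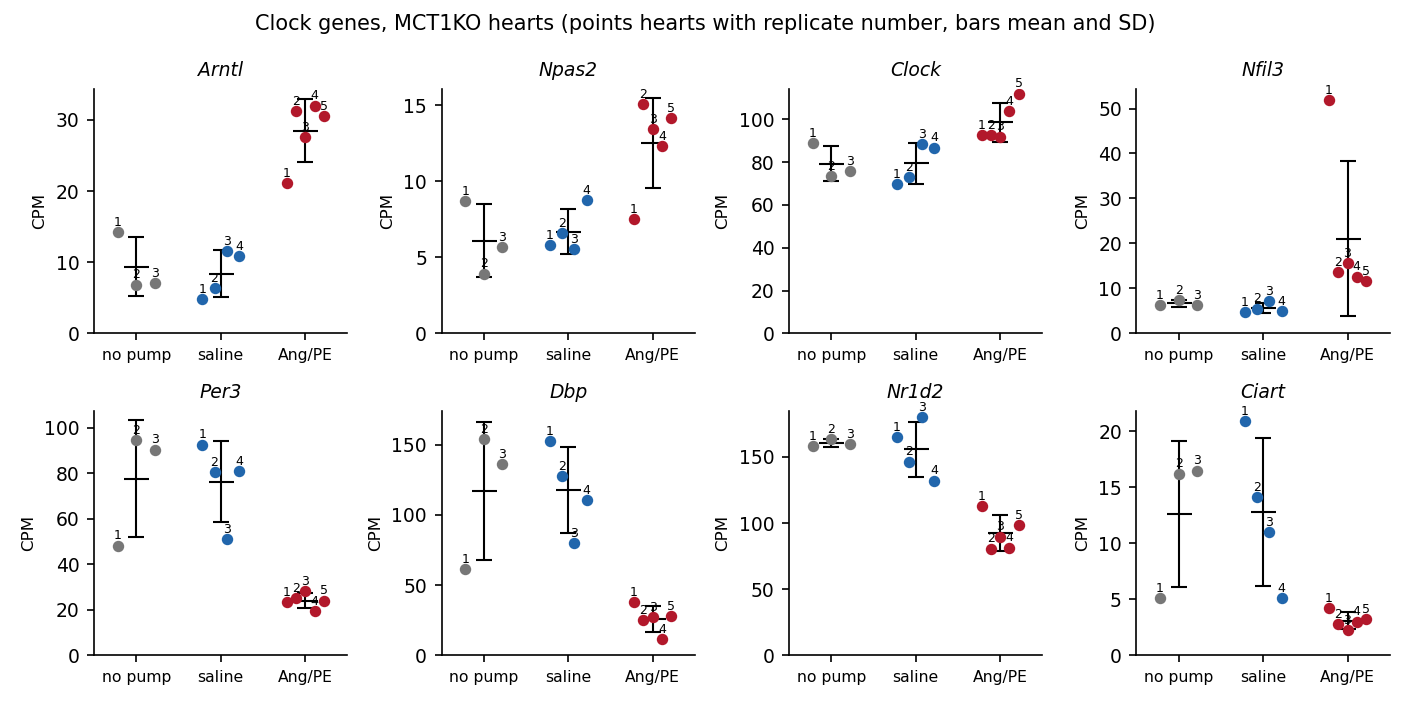
CPM of 8 clock genes in the MCT1KO hearts without a pump, with saline and with Ang/PE; points are hearts labelled with their replicate number, bars are mean and SD. The activator Arntl is higher in all 5 Ang/PE hearts (21.1 to 32.0 CPM) than in the saline hearts (4.86 to 11.6 CPM), while Per3, Dbp, Nr1d2 and Ciart are lower in all 5.

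Of 31 tested potassium and sodium channel genes 0 rose, 5 fell, and the median was -0.14 (16.1% called lower, against 2.7% of all tested genes). Kcna2, the delayed rectifier channel Kv1.2 of axons and muscle, was at 6.18, 5.17, 4.19 and 17.3 CPM with saline and 1.55, 2.23, 2.79, 1.87 and 1.501 CPM with Ang/PE. The hearts without a pump were at 6.92, 5.91 and 6.26 CPM, so all 5 Ang/PE hearts lay below all 7 other MCT1KO hearts (log2 fold change -2.04, SE 0.30, edgeR adjusted p = 0.00334). In the fit with 3 saline hearts, saline replicate 4 left out, the log2 fold change was -1.39 and the adjusted p 0.00594. Its relatives Kcna6 and Kcna1 fell by 1.88 and by 1.52 on the log2 scale, with overlapping groups, at adjusted p of 0.0141 and 0.0183 in edgeR. Kcnj3 and Kcnj5, the subunits of the acetylcholine-gated channel of the atrium, were highest in saline replicate 4. Kcnj3 was at 132, 128, 91.9 and 465 CPM with saline and 37.01 to 85.2 CPM with Ang/PE. Kcnj5 was at 105, 103, 54.2 and 172 CPM with saline and 53.3 to 71.2 CPM with Ang/PE. When saline replicate 4 was removed, these 4 had adjusted p of 0.077 to 0.232, and against saline replicate 3 alone Kcnj5 was at 0.16. Kcnd2, a channel of the transient outward current that is known to decline in hypertrophy, had a log2 fold change of -0.18 (SE 0.17, adjusted p = 0.605).

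Markers of Schwann cells and neurons, which hold Kcna1 and Kcna2 too, fell in 7 of 16 tested genes (against 2.7% of all tested genes) and rose in 0, with a median of -0.89 that was -0.41 without saline replicate 4 and -0.22 against saline replicate 3 alone. Their summed level was 104.7 to 230.7 CPM in the saline hearts and 89.1 to 151.0 CPM with Ang/PE, and 3 of the 25 listed genes had no count in the Ang/PE hearts. Foxd3, a factor of neural crest and Schwann cell precursors, was at 0.951, 1.11, 0.437 and 1.12 CPM with saline and 0.183, 0.209, 0.159, 0 and 0.0600 CPM with Ang/PE (adjusted p = 0.0123). Mbp, myelin basic protein, was at 6.02, 7.39, 2.81 and 23.9 CPM with saline and 2.19, 3.77, 3.34, 2.69 and 1.92 CPM with Ang/PE, and S100b and Sox10 had adjusted p of 0.011 and 0.0247. Without saline replicate 4, these 4 had adjusted p of 0.0556 to 0.154. The part of nerve tissue in the fall of Kcna2 was not tested.

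Atrial muscle genes fell in 11 of 15 tested members (73.3%, against 2.7% of all tested genes) and rose in 0, with a median of -2.52, which was -1.13 without saline replicate 4 and 0.03 against saline replicate 3 alone. Myl7, the atrial regulatory light chain, was at 237, 244, 0 and 1357 CPM with saline and 0 to 0.279 CPM with Ang/PE. Myl4, the atrial essential light chain, was at 373, 331, 1.5 and 1975 CPM with saline and 1.99 to 5.45 CPM with Ang/PE, Sln at 85.05, 67.3, 0 and 348 CPM with saline and 0 to 0.150 CPM with Ang/PE, and Bmp10 at 1.32, 167, 0.0625 and 134 CPM with saline and 0 to 0.224 CPM with Ang/PE. In saline replicate 3 each of these 4 genes lay no higher than in the highest Ang/PE heart, so their fall is a difference from saline replicates 1, 2 and 4. The adjusted p of the 4 were 0.0116 to 0.0396 in edgeR, and 0.0466 to 0.143 without saline replicate 4, with Myl7 below 0.05 and the others above it. The summed level of the 15 genes, Nppa included, was 335.7 to 9008 CPM with saline and 563.7 to 5384 CPM with Ang/PE. With the atrial and fat scores as covariates 1 gene of 17682 was called, and 1606 had an unadjusted p below 0.05 in edgeR. The part of atrial and fat tissue in the other results was not tested.

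Fat genes fell in 14 of 21 tested members (66.7%, against 2.7% of all tested genes) and rose in 0, with a median of -6.15, also with the 2 genes at 0 in all Ang/PE hearts set at their bound, which was -3.74 without saline replicate 4 and -0.44 against saline replicate 3 alone. Ucp1, the uncoupling protein of brown fat, was at 11.4, 7.53, 0.0625 and 551 CPM with saline and at 0 CPM in all 5 Ang/PE hearts. Adipoq, adiponectin, was at 7.395, 5.56, 0.125 and 123 CPM with saline and 0 to 0.183 CPM with Ang/PE, and Plin1, the coat protein of fat droplets, at 17.4, 9.62, 0.500 and 257 CPM with saline and 0 to 0.274 CPM with Ang/PE, with saline replicate 4 the highest for all 3. Summed over the 24 listed genes the saline hearts were at 1763, 1527, 1626 and 12769 CPM and the Ang/PE hearts at 1117 to 1528 CPM, with 4 of the 24 at 0 counts in all Ang/PE hearts. The adjusted p of Ucp1, Adipoq and Plin1 without saline replicate 4 were 0.0455 to 0.197, with Plin1 below 0.05 and the others above it. Markers of epicardium and mesothelium fell in 4 of 14 (28.6%, against 2.7% of all tested genes), Krt19, Upk3b, Gpm6a and Bnc1. Upk3b is in the atrial list too. The median of these markers was -2.87. It was -1.84 without saline replicate 4, where 0 were called against 0.222% of all genes, and -0.17 against saline replicate 3 alone. Their summed level was 334.0 to 1126 CPM with saline and 204.5 to 420.9 CPM with Ang/PE.

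Some of the largest decreases outside the lists were likewise highest in saline replicate 4. Acss3, a mitochondrial acyl-CoA synthetase, was at 3.698, 3.14, 3.94 and 42.7 CPM with saline and 2.56, 1.05, 1.43, 2.84 and 2.76 CPM with Ang/PE, and Slc24a3, a sodium-calcium-potassium exchanger, at 5.07, 4.12, 4.62 and 35.1 CPM with saline and 2.93, 2.16, 1.91, 3.29 and 2.16 CPM with Ang/PE. Their log2 fold changes of -2.65 and -2.30 were -0.76 and -0.90 without saline replicate 4, at adjusted p of 0.208 and 0.0455. Rp1, a microtubule-binding protein, was at 9.14, 11.9, 2.87 and 34.2 CPM with saline and 2.103, 0.559, 0.796, 2.02 and 0.240 CPM with Ang/PE, and its log2 fold change of -3.72 was -2.86 without that heart (adjusted p = 0.077).

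Other decreases were seen against each saline heart. Cfap61, a protein of motile cilia, was at 8.87, 9.23, 3.69 and 8.14 CPM with saline and 2.103, 1.12, 1.75, 1.79 and 0.780 CPM with Ang/PE (log2 fold change -2.33, SE 0.40, edgeR adjusted p = 0.00768). Scara5, a ferritin receptor of resting fibroblasts, was at 32.1, 32.8, 46.2 and 65.1 CPM with saline and 26.1, 13.9, 18.3, 20.4 and 8.35 CPM with Ang/PE, with no overlap (log2 fold change -1.35, SE 0.23, edgeR adjusted p = 0.00989). It was the only one of 16 resting fibroblast markers to be called, and the median of that list was 0.03. Tppp, which promotes tubulin polymerization, was at 28.4, 28.1, 22.7 and 62.8 CPM with saline and 12.7, 15.2, 17.3, 12.04 and 13.3 CPM with Ang/PE (log2 fold change -1.33, SE 0.23, edgeR adjusted p = 0.00989), and Rfx5, a regulator of class II major histocompatibility genes, at 13.7, 17.1, 12.9 and 15.7 CPM with saline and 7.59, 10.2, 11.1, 8.299 and 9.97 CPM with Ang/PE (log2 fold change -0.65, SE 0.12, edgeR adjusted p = 0.011). The calls of Cfap61, Scara5, Tppp and Rfx5 stood without saline replicate 4, at adjusted p of 0.0239 to 0.0455 in edgeR. These genes belong to the 36 called in every removal of 1 heart, so that result follows from their membership.

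Stxbp6, a regulator of vesicle fusion, Slc6a9, the glycine transporter GlyT1, and Gstt2, a glutathione transferase, were lower in every Ang/PE heart, with log2 fold changes of -1.25 to -0.87. Their adjusted p of 0.011 each became 0.0507 to 0.0569 without saline replicate 4. Tpsb2, a mast cell tryptase, was at 1.32, 1.64, 2.25 and 5.01 CPM with saline and 0.640, 0.698, 0.478, 0.374 and 0.240 CPM with Ang/PE (log2 fold change -2.40, SE 0.39, edgeR adjusted p = 0.00498). Il1rl1, the receptor of interleukin 33 on mast cells and other cells, was at 2.91, 2.16, 2.81 and 3.01 CPM with saline and 1.28, 1.47, 1.27, 1.05 and 1.02 CPM with Ang/PE (log2 fold change -1.16, SE 0.22, edgeR adjusted p = 0.011). Neither overlapped between groups, and without saline replicate 4 they had adjusted p of 0.0239 and 0.0455 in edgeR. Tpsb2 and Il1rl1 belong to the 36 genes called in every removal of 1 heart, so a call in that fit follows from this membership.

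Besides Tgm2, Arntl and Thbs4, given above, several increases of small p-value were below 2-fold. Plekho1 was at 39.8, 40.5, 38.4 and 30.8 CPM with saline and 60.7, 75.4, 51.8, 67.4 and 56.6 CPM with Ang/PE, with the hearts without a pump at 35.6, 34.3 and 41.7 CPM (log2 fold change 0.74, SE 0.11, edgeR adjusted p = 0.00334). Dync1li1, a light intermediate chain of the dynein motor, was at 55.04, 58.2, 56.7 and 37.04 CPM with saline and 82.2, 94.5, 86.4, 81.6 and 98.6 CPM with Ang/PE (log2 fold change 0.78, SE 0.12, edgeR adjusted p = 0.00498). Clic5 was at 312, 312, 338 and 175 CPM with saline and 516, 552, 464, 476 and 591 CPM with Ang/PE (log2 fold change 0.87, SE 0.15, edgeR adjusted p = 0.00566). In these 3 genes the lowest Ang/PE heart stood above every saline heart and every MCT1KO heart without a pump.

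Samd4, an RNA-binding translational repressor, was at 132, 127, 114 and 94.8 CPM with saline and 208, 180.2, 175, 189 and 215 CPM with Ang/PE (log2 fold change 0.72, SE 0.12, edgeR adjusted p = 0.00566), and Prnp at 93.9, 98.8, 82.3 and 70.8 CPM with saline and 147, 167, 122, 127 and 145 CPM with Ang/PE (log2 fold change 0.71, SE 0.13, edgeR adjusted p = 0.00971). Arhgef37, a guanine nucleotide exchange factor family member, was at 7.92, 6.22, 7.75 and 3.42 CPM with saline and 11.5, 10.8, 14.2, 14.1 and 11.6 CPM with Ang/PE (log2 fold change 0.97, SE 0.18, edgeR adjusted p = 0.011). All 6 of these genes kept an adjusted p below 0.05 in edgeR without saline replicate 4, at 0.0112 to 0.0455. They belong to the 36 genes called in every removal of 1 heart, so these calls follow from that membership. Against saline replicate 3 alone their log2 fold changes were 0.61 to 0.78. Rusc2, an adaptor of vesicle traffic, Wdr1, a cofactor of actin disassembly, and Chmp4c, an ESCRT-III subunit, rose by 0.41 to 0.67 on the log2 scale, with adjusted p of 0.011 to 0.0116 and, without saline replicate 4, 0.0512 to 0.0556.

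Genes of lactate and pyruvate handling, the process to which MCT1 belongs, had 37 tested members, of which 1 rose and 0 fell, with a median of 0.07. The share called, 2.7%, is near the 4.46% of all tested genes. The member that rose, Slc16a6 (MCT7), was at 11.8, 12.1, 7.87 and 7.43 CPM with saline and 13.4, 15.99, 16.6, 13.8 and 15.01 CPM with Ang/PE, without overlap (log2 fold change 0.61, SE 0.18, edgeR adjusted p = 0.0476), and had an adjusted p of 0.226 without saline replicate 4. Slc16a1 itself had a log2 fold change of 0.26 (SE 0.14, adjusted p = 0.28). Slc16a7 (MCT2) was at 21.7, 20.1, 20 and 27.7 CPM with saline and 13.8, 12.7, 14.5, 20.9 and 12.5 CPM with Ang/PE and Slc16a3 (MCT4) at 2.11, 2.62, 3.06 and 3.77 CPM with saline and 4.48, 4.61, 2.39, 1.196 and 3.48 CPM with Ang/PE, with adjusted p of 0.078 and 0.834. Ldha and Ldhb, the lactate dehydrogenase subunits, had log2 fold changes of 0.18 (SE 0.10) and 0.23 (SE 0.17). Those of Mpc1 and Mpc2, the mitochondrial pyruvate carrier, were 0.13 (SE 0.15) and -0.03 (SE 0.15), and that of Pdk4, a kinase that shuts pyruvate dehydrogenase, was 0.38 (SE 0.49).

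Of 41 tested genes of glycolysis, glucose uptake and glycogen 2 rose and 3 fell, with a median of 0.21 (12.2% called, against 4.46% of all tested genes). Gyg, glycogenin, which primes glycogen, was at 112, 111, 111 and 77.7 CPM with saline and 133, 164, 123, 125 and 148 CPM with Ang/PE (log2 fold change 0.43, SE 0.10, edgeR adjusted p = 0.0215). Pfkp, the platelet-type phosphofructokinase, was at 72.8, 70.6, 57.9 and 67.4 CPM with saline and 90.9, 122, 84.8, 87.8 and 118 CPM with Ang/PE (log2 fold change 0.59, SE 0.15, edgeR adjusted p = 0.0273). Phkg1, the catalytic subunit of muscle phosphorylase kinase, fell from 41.3, 37.8, 18.4 and 62.8 CPM with saline to 14.5, 10.3, 12.3, 16.6 and 8.65 CPM with Ang/PE, without overlap (log2 fold change -1.69, SE 0.30, edgeR adjusted p = 0.011). Pfkfb3 and Pygl, the others that fell, were at 27.8, 22.4, 19.3 and 208 CPM and at 6.92, 6.48, 5.69 and 81.3 CPM with saline, high in replicate 4 only, and at 13.3 to 22.4 and 4.49 to 7.47 CPM with Ang/PE. Without it none of the 41 was called, against 0.222% of all genes in that fit. The 5 then had adjusted p of 0.0569 to 0.829 in edgeR. Slc2a1, the basal glucose transporter, and Hk2, a muscle hexokinase, had adjusted p of 0.31 and 0.505.

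Of 57 tested genes of fatty acid uptake and oxidation 1 rose and 2 fell, with a median of 0.03. The share called, 5.26%, is near the 4.46% of all tested genes. Bdh1, which interconverts the main ketone bodies, was at 65.3, 91.9, 118 and 33.8 CPM with saline and 117, 136, 186, 195 and 139 CPM with Ang/PE (log2 fold change 1.00, SE 0.27, edgeR adjusted p = 0.04). Ucp2, a mitochondrial carrier, was at 95.3, 110.3, 81.7 and 178 CPM with saline and 74.6, 58.9, 54.5, 63.5 and 52.1 CPM with Ang/PE (log2 fold change -0.94, SE 0.25, edgeR adjusted p = 0.0361). Slc27a2, a fatty acid transport protein, was at 1.004, 1.11, 0.500 and 38.1 CPM with saline and at 0 CPM in all Ang/PE hearts. With saline replicate 4 left out, Bdh1 and Ucp2 had adjusted p of 0.159 and 0.235, and Slc27a2 no longer passed the filter on low counts. Cpt1b, which admits fatty acids to mitochondria, and Ppara, the nuclear receptor of this pathway, had adjusted p of 0.276 and 0.624. Of 30 genes of the TCA cycle and its shuttles 0 rose and 3 fell (10%, against 2.7% of all tested genes), Slc25a1, Gpd2 and Gpd1. Each had its highest value in saline replicate 4, and without it their adjusted p were 0.211 to 0.874 in edgeR. None of 74 nuclear genes of the respiratory chain (median 0.07) and none of 13 mitochondrially encoded genes (median 0.17) was called. Those medians were -0.06 and 0.02 without saline replicate 4 and -0.32 and -0.57 against saline replicate 3 alone, the saline heart with the largest share of mitochondrially encoded counts, 17.26% against 9.03 to 10.04% in the other saline hearts.

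Immediate early genes had 0 calls among 25 tested, with a median of 0.52. Egr1 was at 21.6, 18.7, 11.5 and 105 CPM with saline and 38.9, 432, 27.5, 53.01 and 36.9 CPM with Ang/PE, and Fos at 2.01, 2.36, 2.999 and 51.1 CPM with saline and 14.2, 95.2, 2.71, 4.93 and 4.38 CPM with Ang/PE. In both genes saline replicate 4 and Ang/PE replicate 2 stood above the other hearts of their groups, and the same 2 hearts were highest for Nr4a1. Myc was highest in Ang/PE replicate 1, at 19.1 CPM against 3.36 to 5.40 CPM in the other Ang/PE hearts. The share called among 47 tested cell cycle genes, 4.26%, is near the 4.46% of all tested genes: 1 rose, Cdkn1a, and 1 fell, Cdk2 (log2 fold change -0.46, adjusted p = 0.0192, and 0.0945 without saline replicate 4). Mki67, the proliferation marker, had a log2 fold change of 0.05 (SE 0.29).

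Interferon-stimulated genes had 1 call among 43 (2.33%, near the 4.46% of all tested genes), with a median of -0.15: Ifi27 fell, from 27.1, 27.03, 21.9 and 133 CPM with saline to 14.8, 20.6, 17.9, 17.9 and 25.3 CPM with Ang/PE, and its adjusted p of 0.0315 was 0.236 without saline replicate 4. Among markers of immune cells, 0 of 24 macrophage and monocyte genes (median -0.06), 0 of 8 T and NK cell genes, 0 of 13 B and plasma cell genes and 1 of 5 tested neutrophil genes, Mmp9, were called. Summed macrophage markers were at 406.6 to 559.9 CPM with saline and 349.7 to 622.9 CPM with Ang/PE. None of 8 skeletal muscle genes and 1 of 2 tested lung and thymus genes, Cd1d1, which fell, was called. None of 17 smooth muscle and pericyte genes and 1 of 20 endothelial genes, Cav1 of caveolae, was called. Cav1 fell by 0.54 on the log2 scale at an adjusted p of 0.0416, which was 0.267 without saline replicate 4. Blood cell genes had a median of 0.94 with 0 of 11 called, at summed levels of 365.8 to 818.8 CPM with saline and 351.0 to 2573 CPM with Ang/PE. By list, the most genes that fell were fat (14), atrial (11), Schwann cell and neuron (7) markers.

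**Figure D5:**
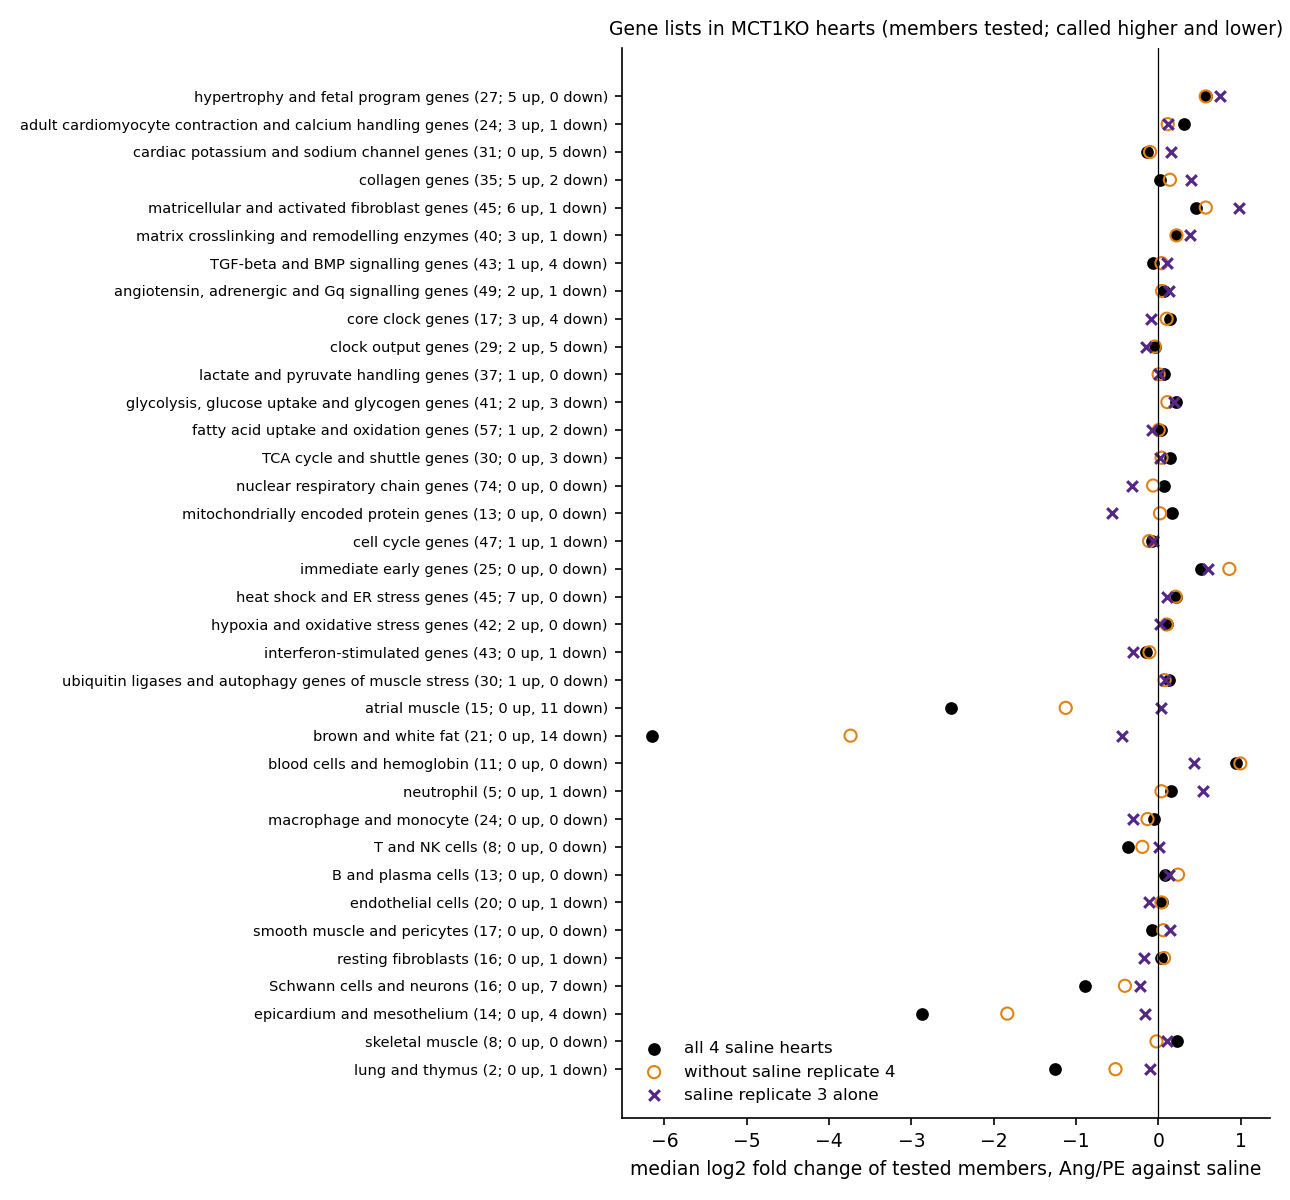
Median log2 fold change of the tested members of each gene list, Ang/PE against saline in MCT1KO hearts, with all 4 saline hearts (filled circles), without saline replicate 4 (open circles) and with saline replicate 3 alone (crosses); brackets give members tested, called higher and called lower. Atrial, fat and mesothelial lists move from -2.52, -6.15 and -2.87 to 0.03, -0.44 and -0.17, while the hypertrophy list stays at 0.58, 0.57 and 0.74. The adult contraction and calcium handling list is at 0.32, 0.11 and 0.12 in the same order of settings.

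Whether the response differed from that of WT hearts was tested by the interaction of genotype and Ang/PE. No gene was called (0%), the smallest adjusted p being 0.273 in edgeR, and 2392 genes had an unadjusted p below 0.05, while DESeq2 called 13. Of the 788 genes called in MCT1KO hearts, 350 had an unadjusted p below 0.05 in edgeR for the interaction, against 2392 of all 17682 tested genes. The interaction includes the contrast that chose these 788 genes, in the same hearts, so a raised count among them is built in. The WT groups held 6 saline and 3 Ang/PE hearts. Xist was nearly absent from 5 of the 6 WT saline hearts and present in all 3 WT Ang/PE hearts. The atrial score was 0.67 to 8.34 in WT saline hearts and 0.53 to 0.56 in WT Ang/PE hearts. With Xist as a covariate, and with the atrial and fat scores as covariates, the interaction had 0 calls in edgeR too, and 2210 and 1351 genes had an unadjusted p below 0.05. Xirp2 was at 1046 to 1445 CPM in WT saline and 1325 to 4986 CPM in WT Ang/PE hearts, and the log2 fold change in MCT1KO hearts minus that in WT hearts was 0.50 (SE 0.43, adjusted p = 0.624). For Myh7 the WT ranges were 268 to 613 and 356 to 1458 CPM and the difference was 1.31 (SE 0.81, adjusted p = 0.472). For Tgm2 they were 247 to 279 and 278 to 391 CPM, with a difference of 0.35 (SE 0.14, adjusted p = 0.325).

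Col22a1 had the widest gap of the collagen genes named here, at 0.174 to 1.19 and 0.349 to 0.786 CPM in WT saline and WT Ang/PE hearts, with a difference of 4.01 (SE 0.98, adjusted p = 0.294). Thbs4 differed by 2.64 (SE 1.08, adjusted p = 0.325) and Casq2 by 0.64 (SE 0.17, adjusted p = 0.294). Among clock genes the difference was -1.19 (SE 0.37, adjusted p = 0.294) for Per3, -0.68 (SE 0.18, adjusted p = 0.294) for Nr1d2 and 0.85 (SE 0.44, adjusted p = 0.393) for Arntl. Kcna2, which was at 4.39 to 6.88 CPM in WT saline and 2.56 to 2.64 CPM in WT Ang/PE hearts, had a difference of -0.91 (SE 0.44, adjusted p = 0.369). Thbs1, Rcan1 and Nfil3 had differences of -0.02 (SE 0.90), 0.52 (SE 0.58) and 0.13 (SE 0.72). No response described here is thus shown to be particular to the MCT1KO label, and a p that misses the threshold does not show that the genotypes responded alike.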

How the data were processed

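RNA-seq libraries of 25 mouse hearts were compared, 9 of them MCT1KO hearts with Ang/PE (5) or saline (4). The authors deposited raw read counts per gene; the submitters' processing notes name cutadapt 1.16, STAR 2.7.9a, featureCounts 1.6.3, DESeq2 1.42.1 and the builds GRCm39 and mm39, without their settings. Gene symbols were matched for 51948 of 56941 genes.

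Counts as deposited were fitted in edgeR 4.0.16 (R 4.3.3): filterByExpr, TMM scaling, a robust quasi-likelihood model of 6 groups (19 residual degrees of freedom), the contrast of Ang/PE against saline in MCT1KO hearts and the interaction with genotype, with Benjamini-Hochberg adjustment over 17682 genes and a threshold of 0.05. CPM use TMM-scaled library sizes. Total counts of 12216704 to 17421963 per heart limit precision for genes of few counts. The labels do not say how the hearts of a group relate, so p-values measure the spread between these samples. Scripts were tested on simulated data. Alternatives were DESeq2 1.42.0, other scaling and filters, covariates, the replicate number and removal of each heart.

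The genes named are the 12 with the smallest p in each direction and the 6 largest changes in each direction (called, with a symbol that is no predicted model, mean log2 CPM above 1, no overlap between the groups), genes of smallest p within the gene lists and standard members of those lists. The members and lists were chosen with earlier results of these data known. Promoter windows came from RefSeq (GRCm38.p6), a build other than that of the counts, so coordinates are printed for these windows alone. A few genes are not reported here.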

Additional observations from a re-analysis of the deposited data

Results flagged for a closer look

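Dixon's test at its 95% critical value was applied to the highest and lowest heart of both groups for the genes named with values and for the library measures. Of 316 such tests 37 set a heart apart, where chance alone gives about 5%. Saline replicate 4 was the heart set apart in 25 of them. Values are log2(CPM + 1) unless stated, with the range of the other hearts of the same group.

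Saline replicate 3 was the lowest heart of its group by this test in the following. Cfap61 lay at 2.23 against 3.19 to 3.35. Saline replicate 3 was the highest heart of its group by this test in the following. Adamts9 lay at 6.11 against 5.76 to 5.79. The share of mitochondrially encoded counts was 17.26% against 9.03 to 10.04% in the other saline hearts. Saline replicate 4 was the lowest heart of its group by this test in several measures. Dync1li1 lay at 5.25 against 5.81 to 5.89. Clic5 lay at 7.46 against 8.29 to 8.41. Wdr1 lay at 6.83 against 7.16 to 7.18. Rcan1 lay at 5.28 against 6.02 to 6.12. Xirp2 lay at 9.15 against 10.13 to 10.21. Ankrd23 lay at 5.096 against 6.52 to 6.78. Actn2 lay at 10.12 against 10.66 to 10.76. Atp2a2 lay at 13.37 against 13.83 to 13.88. Ldhb lay at 8.75 against 9.85 to 9.95. Gyg lay at 6.299 against 6.81 to 6.82. Bag3 lay at 7.01 against 7.69 to 7.76. Hsp90ab1 lay at 9.48 against 9.78 to 9.81. Mki67 lay at 2.96 against 3.61 to 3.75. Fbxo40 lay at 6.67 against 8.01 to 8.08. Saline replicate 4 was the highest heart of its group by this test in several measures. Mmp9 lay at 3.33 against 2.096 to 2.24. Slc6a9 lay at 2.94 against 2.201 to 2.23. Acss3 lay at 5.45 against 2.05 to 2.304. Slc24a3 lay at 5.17 against 2.36 to 2.602. Lox lay at 4.05 against 2.07 to 2.33. Nr1d1 lay at 7.53 against 7.14 to 7.204. Pfkfb3 lay at 7.71 against 4.34 to 4.85. Pygl lay at 6.36 against 2.74 to 2.99. Slc27a2 lay at 5.29 against 0.58 to 1.08. Ifi27 lay at 7.07 against 4.52 to 4.81. Fos lay at 5.703 against 1.59 to 2.000.

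Ang/PE replicate 1 was the highest heart of its group by this test in several measures. Nfil3 lay at 5.73 against 3.65 to 4.06. Bag3 lay at 8.95 against 8.07 to 8.28. Ddit4 lay at 7.36 against 5.78 to 6.23. Myc lay at 4.33 against 2.13 to 2.68. Ang/PE replicate 2 was the lowest heart of its group by this test in the following. Adra1a lay at 4.26 against 5.64 to 5.99. Ang/PE replicate 2 was the highest heart of its group by this test in the following. Ankrd23 lay at 8.02 against 7.31 to 7.49. Egr1 lay at 8.76 against 4.83 to 5.75. Ang/PE replicate 4 was the highest heart of its group by this test in the following. Slc16a7 lay at 4.45 against 3.75 to 3.95. Ang/PE replicate 5 was the lowest heart of its group by this test in the following. Mpc1 lay at 6.81 against 7.098 to 7.19.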

How the results depend on the processing

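The count of 788 genes called by edgeR's quasi-likelihood test moved with several choices. DESeq2 called 1224 genes, and 452 were called with no filter on low counts. Among hearts that express Xist 13 were called, with the atrial and fat scores as covariates 1, with the clock score as a covariate 0, with only the 2 groups compared in the fit 1, and with saline replicate 3 as the only saline heart, a choice made after seeing the data, 0. At an unadjusted p below 0.05 the clock score fit had 1612 genes and the fit with saline replicate 3 alone 1874. Over the removals of 1 heart the count ranged from 39, without saline replicate 4, to 1541, without saline replicate 3. The interaction with genotype had 0 calls in every edgeR setting run and 13 with DESeq2. The cause of these changes was not tested, and some settings also leave fewer hearts. Of the genes named with values, 85 lost their call without saline replicate 4, 113 with the atrial and fat scores, 114 with the clock score and 29 with the replicate block. In the removals of 1 heart no named gene that was called changed sign. The calls were made with these same hearts, so the kept signs are no independent support.

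With the replicate block, the replicate number as a term, 534 genes were called and the interaction had 0 calls. Correlations between deviations of same-numbered saline and Ang/PE hearts were -0.139 to 0.115, and 0 of 4 saline hearts correlated best with their own number, so the hearts share only a number.

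Signs turned for some genes called lower or higher. With the atrial and fat scores as covariates the log2 fold changes were 0.015 for Kcnj5, 0.38 for Col4a6, 0.28 for Adrb3, 0.36 for Pygl, 0.45 for Slc25a1, 0.25 for Gpd2, 0.68 for Gpd1, 0.053 for Ifi27 and 0.62 for Myl4. With saline replicate 3 alone they were 0.16 for Kcnj5, 0.039 for Pygl, 0.39 for Slc25a1, 0.23 for Gpd2, 0.63 for Gpd1, 1.10 for Myl4 and 0.46 for Bnc1. In Sln, Myl7 and Bmp10, at or near 0 counts in that heart and in the Ang/PE hearts, the fitted values of 2.82, 3.92 and 0.65 depend on the prior count. With the clock score as a covariate they were -0.18 for Npas2, -0.026 for Clock, 0.086 for Cry2, 0.090 for Tef and 0.80 for Ciart, genes that are in the score or in its lists.

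The precision is limited by 4 and 5 hearts a group and by the unlike saline hearts. Genes at 0 in the Ang/PE hearts are given by level, with no fold.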
